A study of Mus musculus with 10 samples.

Results

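The genes described here encode the subunits of ligand-gated neurotransmitter receptor channels. They were chosen by symbol, as the names of the AMPA, kainate, NMDA, delta, GABA-A, nicotinic acetylcholine, 5-HT3 and glycine receptor families. Of the 24391 genes in the count files 62 matched, and 58 of them are described here: 56 subunit genes and 2 others, among them the antisense transcript Grin1os, which lies across Grin1. Values are reported for the 28 of these with at least 10 counts in 4 or more of the 10 libraries, which are 27 subunit genes and Grin1os. The other 30 genes fell short of this minimum.

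RNA was sequenced from 5 lines established from small cell lung cancers of mice. They carry the names G4314, G9351, G9488, G9529 and G9577. The genotype given for all 10 libraries is Rb;p53,TRE-MYCN, LSL-RTTA: altered Rb and p53, MYCN behind a tetracycline-responsive element, and the activator rtTA, which drives that element in the presence of doxycycline. From each line came a MYCN-on library, of cells kept in doxycycline, and a MYCN-off library, of cells deprived of the drug for 4 days. The series asks about MYCN in this cancer, so each line was compared with itself. Rb and p53 were altered in both groups, and each line and condition has 1 library. No cells lacking the transgene were given doxycycline, so an effect of the drug and an effect of MYCN cannot be told apart. The promoter or virus that activated rtTA in the lung was not given in the sources used here.

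Ligand-gated channels open when a transmitter binds and pass ions at once. Ionotropic glutamate receptors are assemblies of several subunits that admit cations. The nicotinic, 5-HT3, GABA-A and glycine receptors are pentamers of a common fold, of which the first pair admit cations and the others chloride. Which subunits a cell makes sets the pharmacology, the calcium permeability and the anchoring of its receptors. Small cell lung cancer is a neuroendocrine tumour whose cells share many transcripts with neurons, and nicotinic subunit genes have long been studied in it.

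Total counts ran from 9586465 to 11960074 per library. Mycn, the check of the labels, was higher with doxycycline in all 5 lines, by 2.87 on the log2 scale (SE 0.38), or 7.31-fold (adjusted p = 0.00428, edgeR's quasi-likelihood test, Benjamini-Hochberg). Whether reads of the transgene itself map to the mouse gene was not given in the sources used here. The line G9577 stood apart from the others. A list of 12 neuroendocrine markers summed to 3474 to 4372 CPM (counts scaled by library total and TMM factor) with MYCN on and 5378 to 7109 with MYCN off in the other 4 lines, against 326.5 and 263 in G9577, where Dll3 was at 0 in both libraries. That list was not lowered throughout: Sox2 was at 102 and 88.0 CPM in G9577, on and off. The other 4 lines had 7.39 to 55.1 CPM of Sox2 with MYCN on and 9.78 to 88.1 with MYCN off. With MYCN on, most of the G9577 sum came from Sox2, Ncam1 (99.7 CPM) and Uchl1 (118 CPM). In G9577, 12 mesenchymal markers summed to 3735 CPM with MYCN on and 16788 with MYCN off, against 108 to 233 over the 8 other libraries. Fn1 alone gave 1511 and 10071 CPM of these sums. The list was not raised throughout: Thy1 was at 0 in both G9577 libraries, and Cdh2, at 84.3 and 51.5 CPM, was lowest in that line. The 8 epithelial markers summed to 11.6 and 42.1 CPM there, against 1613 to 3252. There, 8 immune and endothelial markers summed to 38.8 and 189 CPM, against 4.05 to 6.74, with Ptprc, Cd3e and Cdh5 at 0 in both libraries. With MYCN on, 7 of the 12 neuroendocrine markers fell, against 15.5% of all genes tested. The part of these markers in the results below was not tested, and in bulk RNA fewer cells of a type and less RNA per cell cannot be told apart.

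The receptor genes took a small share of the counts, and that share was about the same in 4 lines. The 58 genes together held 0.0670% to 0.114% of the counts of a library in G4314, G9351, G9488 and G9529. In G9577 they held 0.00649% with MYCN on and 0.0131% with MYCN off. To compare genes with each other, CPM was divided by the summed exon length in kilobases. On this scale the 56 subunit genes summed to 162 to 202 CPM per kb with MYCN on and 184 to 222 with MYCN off in the 4 lines, and to 19.9 and 43.0 in G9577.

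**Figure D1:**
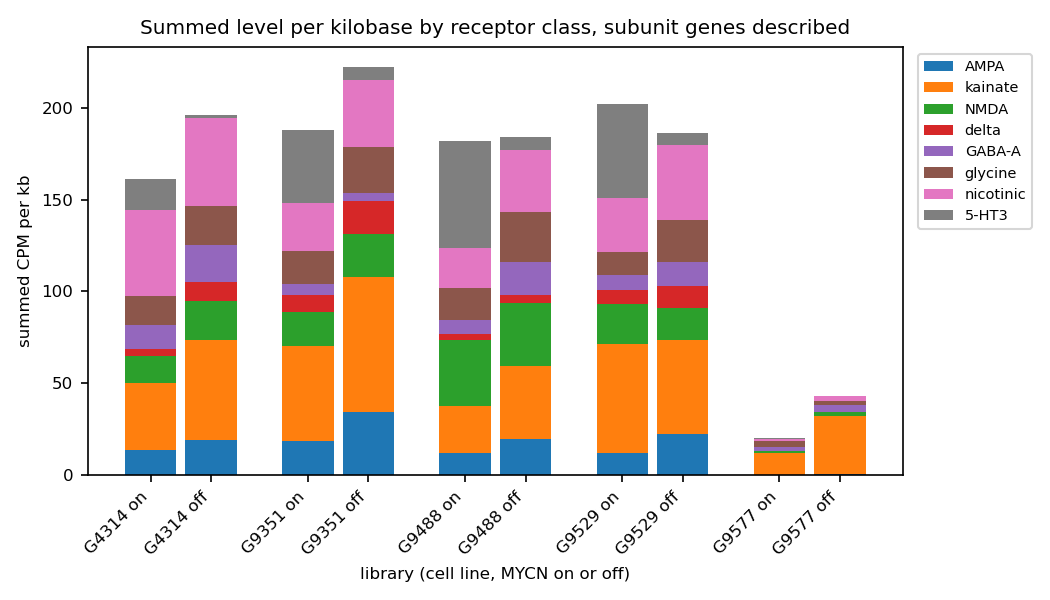
Stacked bars give the summed level in CPM per kb of the 56 subunit genes by receptor class, 1 bar for each of the 10 libraries. The 8 libraries of the first 4 lines reach 162 to 222 and the 2 of G9577 stay at 19.9 and 43.0, and the 5-HT3 band is taller in the MYCN-on bar of each of the 4 lines.

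Few genes carried most of that level. Grik5, a kainate receptor subunit that needs a partner subunit to form a channel, had a mean of 36.2 CPM per kb over the 10 libraries. Htr3a, the subunit that forms 5-HT3 channels alone or with Htr3b, had 18.8, Glrb, the β subunit that anchors glycine receptors, had 16.2, and Grin1, the subunit every NMDA receptor needs, had 15.0. Chrnb2, a neuronal nicotinic β subunit, followed at 13.5 and Gria2, the AMPA receptor subunit that keeps calcium out, at 11.8. Of the genes described, Grik5 was the highest in 8 of the 10 libraries and Htr3a in the MYCN-on libraries of G9351 and G9488. Levels of neighbours in this order overlapped across the libraries, so the order is a description. For Grin1, reads over 1307 exon bases shared with Grin1os were not counted, but its full exon length was the divisor. Its level per kb is therefore a low estimate, also in G9488 with MYCN off, where it followed Grik5 at 29.6 against 31.7.

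**Figure D2:**
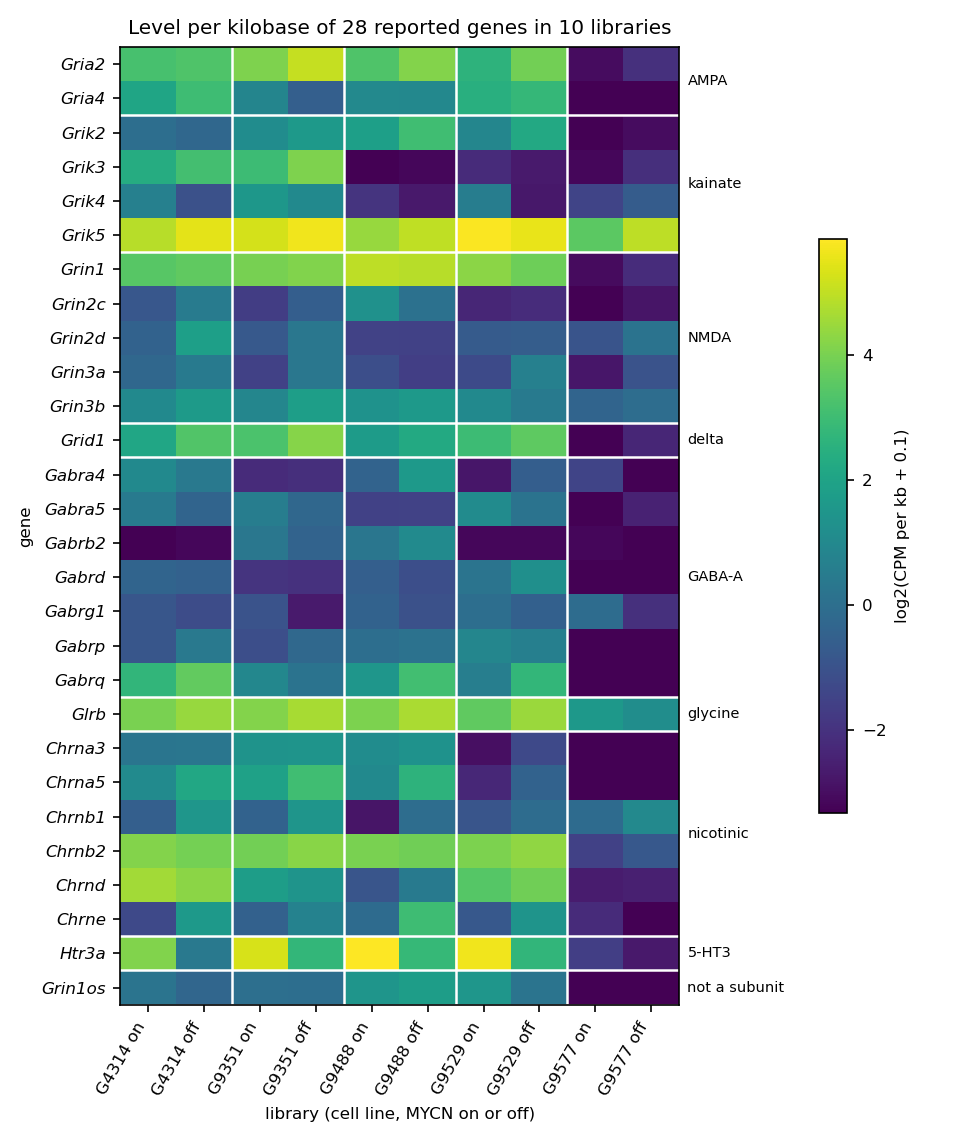
Each row is 1 of the 28 reported genes, grouped by receptor class, and each column is 1 library, with colour for log2(CPM per kb + 0.1). Grik5, Glrb, Grin1 and Chrnb2 are bright across the first 4 lines, Htr3a is bright in the MYCN-on columns of those lines, and the 2 columns of G9577 are dark for most genes.

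With MYCN on, 1 of the 28 genes rose and 5 fell. Htr3a rose, and Gria2, Grid1, Chrna5, Chrnb1 and Chrne fell. Over all 13288 genes tested, 30.4% passed the same threshold, 15% higher and 15.5% lower, so the 3.57% of these genes that rose lie below that background and the 17.9% that fell lie near it. The fitted change was below 0 for 22 of the 28, or 78.6%, with a median of −0.49 on the log2 scale, against 55.5% and −0.09 over all genes tested. Line by line the contrast was smaller: 60.7% to 64.3% were lower in 4 lines, against 49.9% to 52.3% of all genes. In G9577, 53.6% were lower, against 57.8% of all genes. In 3 of the 28 the change was downward in all 5 lines and in 2 upward, or 10.7% and 7.14%, against 22.8% and 20.4% of all genes and 43.2% in either direction. In the 4 lines other than G9577 the change was downward throughout for 7 genes and upward for 3, or 25% and 10.7%, against 26.7% and 25.8% of all genes and 52.5% in either direction. Chrna3, Chrna5 and Chrne met the minimum through the MYCN-off libraries alone, and Gabrg1 and Grik4 through the MYCN-on libraries alone, in each case the group with the higher mean. With a line left out, the genes that fell were not always among these 5. Gria2 alone fell without G4314, and Gabrq alone (adjusted p = 0.0383) without G9351, where none of the 5 passed. Without G9488 Chrnb1 and Grin3a (0.0294) fell, and without G9529 Chrna5, Chrnb1 and Grik5 (0.0357). Over all genes tested, 849 fell without G4314, 929 without G9351, 1286 without G9488 and 1621 without G9529, against 2054 with all 5 lines. Without G9577 the same 5 genes fell, with Glrb (adjusted p = 0.0121) in addition, and Htr3a again was the 1 gene that rose, where 17% of all genes were called in each direction.

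**Figure D3:**
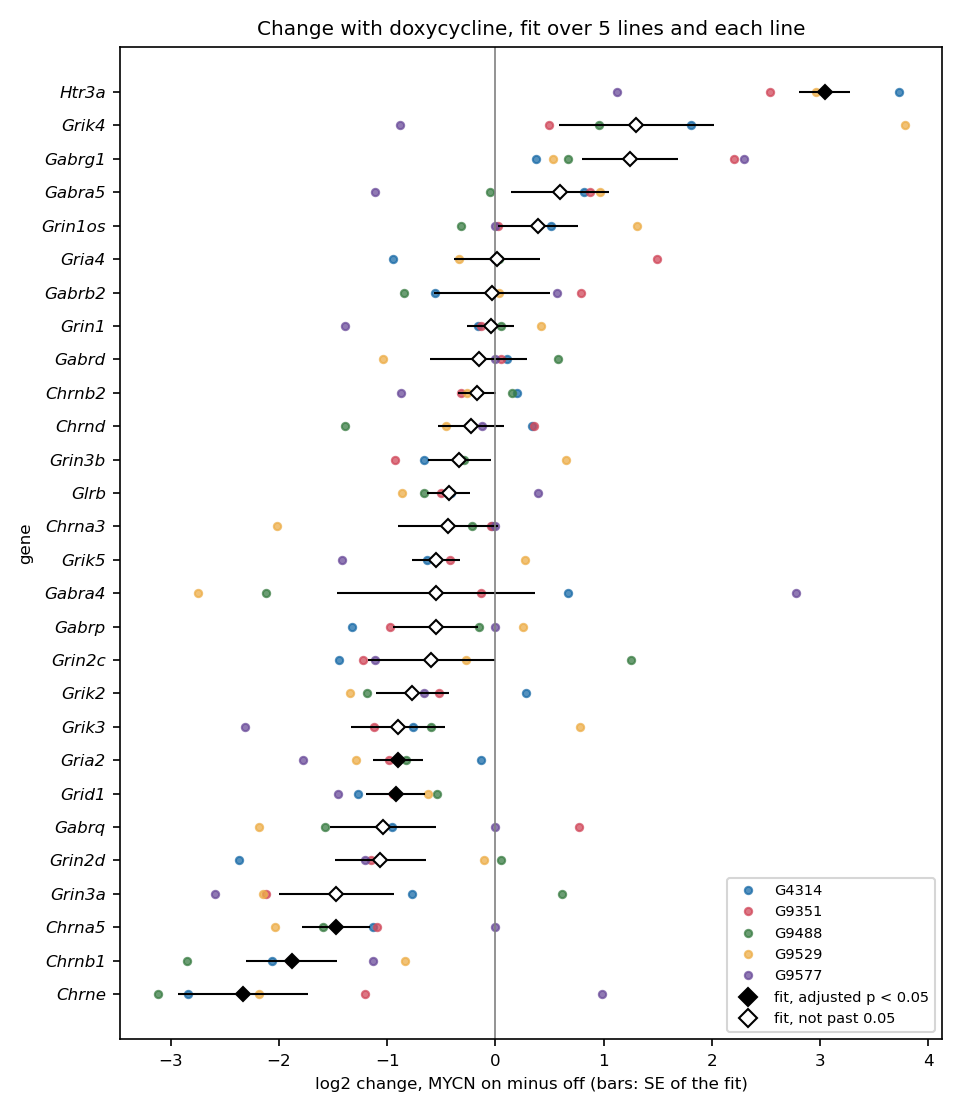
Diamonds give the log2 change, MYCN on minus off, of the fit over 5 lines with its SE, filled where the adjusted p was below 0.05, and coloured points give the change in each line, for the 28 genes. Htr3a lies alone at the right with 3.04, and the 5 filled diamonds of the genes that fell lie between −0.90 and −2.33.

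Differences between the lines were more frequent among these genes than differences with doxycycline. The line term of the same fit passed the threshold for 19 of the 28, or 67.9%, against 46.5% of all genes tested. Both terms passed for 4 genes, the line term alone for 15, the doxycycline term alone for Chrnb1 and Chrne, and neither for 7. G9577 was the lowest line in both conditions for 20 of the 28, or 71.4%, against 24.3% of all genes. Without G9577 the line term passed for 16, or 57.1%, against 31.9% of all genes, and 14 of these were among the 19. The 5 that no longer passed were Chrnb2, Gabrp, Gabrq, Glrb and Grin1os.

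Among the 5-HT3 genes, Htr3a was the one reported. Serotonin opens this channel, which is found mainly on neurons. The gene lies at chr9:48707318-48719204 of mm9, on the minus strand. With MYCN on it was at 35.8 CPM in G4314, 82.2 in G9351, 121 in G9488, 107 in G9529 and 0.465 in G9577. With MYCN off the same lines had 2.52, 13.97, 14.5, 13.5 and 0.110 CPM. Each line was higher with MYCN on, and the groups overlapped. In G9577 Htr3a had 5 counts with MYCN on and 1 with MYCN off.

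The mean rose from 8.94 ± 7.02 to 69.2 ± 50.3 CPM (SD, n = 5 lines), a fitted log2 change of 3.04 (SE 0.23), or 8.25-fold (adjusted p = 0.00267). Changes by line were 3.73 in G4314, 2.54 in G9351, 3.04 in G9488, 2.96 in G9529 and 1.12 in G9577. Leaving out any 1 line kept the call, with folds of 7.11 to 9.09 and adjusted p between 0.00109 and 0.0201. Htr3a made up 10.6% to 32.0% of the summed level per kb of the 56 subunit genes in the 4 lines with MYCN on and 0.617% to 3.79% with MYCN off. Its level also differed among the lines (adjusted p = 0.000194 for the line term). Htr3b, which lies 23.9 kb away and encodes the partner subunit, had at most 5 counts in a library.

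**Figure D4:**
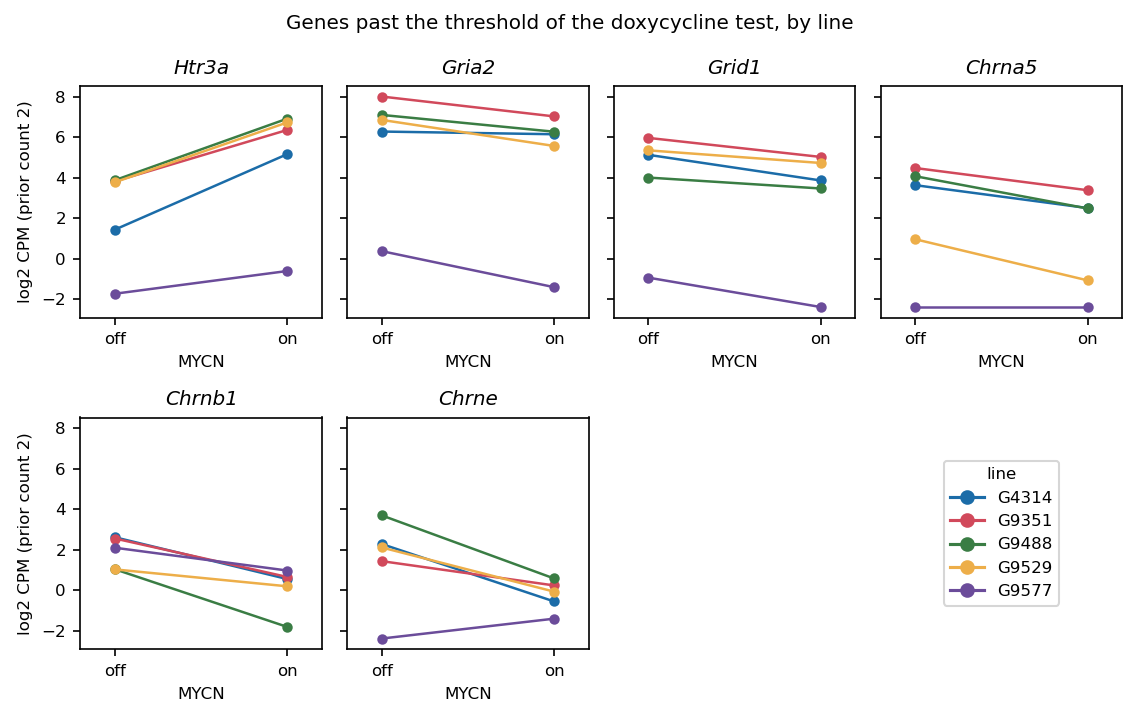
Each panel is 1 of the 6 genes past the threshold of the doxycycline test, with log2 CPM (prior count 2) on the vertical axis and a line from MYCN off to MYCN on for each cell line. All 5 lines slope upward for Htr3a and downward for Gria2, Grid1 and Chrnb1, G9577 is flat for Chrna5 at 0 counts, and it slopes upward for Chrne.

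Of the 4 AMPA receptor genes, Gria2 and Gria4 were reported, and Gria2 fell. AMPA receptors carry most fast excitation in the brain, and the edited Gria2 subunit makes them impermeable to calcium. Gria2 (chr3:80488858-80606713 of mm9, minus strand) was at 70.8, 131, 77.3, 47.4 and 0.186 CPM in G4314, G9351, G9488, G9529 and G9577 with MYCN on. Without doxycycline the same lines had 77.7, 258, 138, 116 and 1.11 CPM in the same order. Every line was lower with MYCN on, by little in G4314, and the groups overlapped. The mean fell from 118 ± 94.1 to 65.3 ± 47.5 CPM (SD, n = 5 lines), a log2 change of −0.90 (SE 0.23, adjusted p = 0.0274). By line it ran from −0.13 in G4314 to −1.78 in G9577, there from 2 counts with MYCN on and 10 with MYCN off. The adjusted p was 0.0863 without G9351, 0.0696 without G9488 and 0.0690 without G9529. Gria4, another AMPA subunit, ran from 0 in both G9577 libraries to 49.3 CPM, with a log2 change of 0.01 (SE 0.40), which lay below 0 with RLE scaling (−0.037) or library size alone (−0.023), and changes of both signs by line. Gria3 reached 39 counts in 1 library, G4314 with MYCN off, and Gria1 stayed below 10 counts in each library.

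Of the 5 kainate receptor genes, Grik2, Grik3, Grik4 and Grik5 were reported and none passed edgeR's doxycycline test. By unadjusted p below 0.05 there was 1, Grik5, which DESeq2 also called (adjusted p = 0.0434), and limma-voom called 2, Grik2 (0.0356) and Grik3 (0.0288), all lower. Grik5 (chr7:25794870-25857388 of mm9) was well counted in all 10 libraries, G9577 included. It was at 111, 146, 83.4, 217 and 44.2 CPM in G4314, G9351, G9488, G9529 and G9577 with MYCN on. Their MYCN-off libraries had 173, 196, 122, 179.5 and 118 CPM. It was lower with MYCN on in 4 of 5 lines and higher in G9529, and the groups overlapped (log2 change −0.55, SE 0.22, adjusted p = 0.0989). In G9577 it made up 57.8% of the summed subunit level per kb with MYCN on and 71.7% with MYCN off, against 11.9% to 27.9% in the other lines.

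Grik3 was a gene of a pair of lines. It was at 44.2 and 75.2 CPM, on and off, in G4314 and at 68.4 and 149.5 CPM in G9351, and at no more than 1.22 CPM in each of the 6 other libraries (line term adjusted p = 0.000181). Grik2 ran from 3.60 to 39.5 CPM in the 4 lines and had at most 1 count in G9577, with a log2 change of −0.77 (SE 0.34, adjusted p = 0.119). Grik4 was higher with MYCN on in 4 of 5 lines, from 0.176 to 4.85 CPM in G9529, with a log2 change of 1.30 (SE 0.71) that did not pass (adjusted p = 0.195). Grik1 was counted in G9351, with 34 and 28 counts, and hardly elsewhere.

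Of the 7 NMDA receptor genes, Grin1, Grin2c, Grin2d, Grin3a and Grin3b were reported, and again none passed edgeR's doxycycline test. By unadjusted p below 0.05 there were 2, Grin2d and Grin3a, both lower, which DESeq2 called (adjusted p = 0.0450 and 0.0118) and limma-voom did not. NMDA receptors pair the Grin1 subunit with Grin2 subunits, which bind glutamate, or with Grin3 subunits. Grin1 ran from 47.8 to 135 CPM in the 8 libraries of 4 lines and had 1 and 5 counts in G9577 with MYCN on and off. Its log2 change was −0.05 (SE 0.22, adjusted p = 0.890). Reads over 1307 exon bases that Grin1 shares with the antisense gene Grin1os were assigned to neither, as counting ignored strand and left out reads of overlapping genes. Grin1os ran from 2.07 to 9.66 CPM in the 4 lines and was at 0 in both G9577 libraries, and its reads cannot be assigned to a strand. Grin2d (−1.06, adjusted p = 0.0900) and Grin3a (−1.47, adjusted p = 0.0730) were lower with MYCN on in 4 of 5 lines without passing the test. Grin2c (−0.59) and Grin3b (−0.33) lay at up to 11.6 and 11.3 CPM. The genes of the main Grin2 subunits of the forebrain were at 0 in each library for Grin2a and below 10 counts in each for Grin2b.

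The start of Grin1 held the E-box CACGTG, the canonical site of MYC family proteins, and it is shown with those of Gria2 and Chrne, genes that fell. Promoters were taken from RefSeq on GRCm38.p6, where 23 of the 28 genes matched 26 promoters of 300 bases each. The 5 genes with no entry were Htr3a, Grid1, Chrnd, Gabrd and Grin3a. Searched on both strands, CACGTG stood in 1 of these 26, that of Grin1, against 7.15% of the 32851 promoters in the table. CAGCTG, an E-box that proneural factors bind, stood in 2 of the 26, those of Chrne and Gabrp, against 16.3%. Both motifs read the same on each strand and do not overlap each other here. A match is a run of letters and not a measured site. The 250 bases before the start of each gene follow, 5′ to 3′ on the gene's own strand, with these motifs in capitals, for Grin1 (chr2:25319188-25319437, minus strand), Gria2 (chr3:80802836-80803085, minus strand) and Chrne (chr11:70619195-70619444, minus strand).
Grin1: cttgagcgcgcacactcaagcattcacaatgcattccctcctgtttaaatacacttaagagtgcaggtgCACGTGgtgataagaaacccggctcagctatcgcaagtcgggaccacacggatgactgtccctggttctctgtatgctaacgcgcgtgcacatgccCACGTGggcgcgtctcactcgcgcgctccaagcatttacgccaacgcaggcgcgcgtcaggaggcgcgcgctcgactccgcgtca
Gria2: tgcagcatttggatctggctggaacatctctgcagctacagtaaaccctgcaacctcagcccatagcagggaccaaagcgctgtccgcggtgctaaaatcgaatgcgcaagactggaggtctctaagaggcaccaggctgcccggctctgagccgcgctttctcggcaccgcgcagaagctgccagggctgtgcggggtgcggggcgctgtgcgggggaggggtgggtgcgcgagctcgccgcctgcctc
Chrne: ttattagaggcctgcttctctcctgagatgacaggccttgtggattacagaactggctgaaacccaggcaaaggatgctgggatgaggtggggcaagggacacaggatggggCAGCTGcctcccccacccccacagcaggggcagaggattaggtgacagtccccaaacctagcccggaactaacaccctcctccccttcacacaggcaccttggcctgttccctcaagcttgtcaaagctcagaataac
Grin1 holds CACGTG at 2 places, and the stretch of Gria2 holds neither motif. Whether either motif bears on the levels of these genes was not tested.

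Grid1, a delta receptor gene, fell. Delta subunits are built like glutamate receptors and act as synaptic organisers that bind cerebellins. Grid1 (chr14:35633322-36394301 of mm9) was at 14.4, 32.4, 10.9, 26.3 and 0 CPM in G4314, G9351, G9488, G9529 and G9577 with MYCN on. With MYCN off the lines had 34.9, 62.5, 15.9, 40.7 and 0.331 CPM. All 5 lines were lower with MYCN on, G9577 with 0 counts against 3, and the groups overlapped. The log2 change was −0.92 (SE 0.27, adjusted p = 0.0393). It did not pass without G4314 (adjusted p = 0.137), G9351 (0.121), G9488 (0.0644) or G9529 (0.0661), and without G9577 it was 0.00960.

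Of 16 GABA-A receptor genes described, 7 reached the minimum and none passed edgeR's doxycycline test. By unadjusted p below 0.05 there was 1, Gabrg1, which was higher and which DESeq2 called (adjusted p = 0.0458), and limma-voom called 1, Gabrq, which was lower (0.0408). GABA-A receptors are chloride channels, most of them built of α, β and γ subunits. Gabrb2, a β subunit gene, was counted in 2 lines. It had 8.68 and 4.94 CPM, on and off, in G9351, 8.37 and 15.2 CPM in G9488, and at most 1 count in each other library. Its log2 change was −0.03 (SE 0.53), with opposite signs in G9351 and G9488.

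Gabrq, the θ subunit, ran from 5.59 to 67.0 CPM in the 4 lines and was at 0 in both G9577 libraries, with a log2 change of −1.04 (SE 0.49, adjusted p = 0.149). Gabrg1 was higher with MYCN on in all 5 lines, from 1.46 ± 1.04 to 3.10 ± 1.05 CPM (SD, n = 5 lines), a difference of 1.25 on the log2 scale (SE 0.44) with an adjusted p of 0.0698. It reached 4.00 CPM in G9577 with MYCN on, within the 1.97 to 4.28 CPM of the other lines. Gabra5 (0.59), Gabra4 (−0.55), Gabrp (−0.55) and Gabrd (−0.15) stayed at or below 12.4 CPM. Gabra4 moved in opposite directions by line, from −2.75 in G9529 to 2.78 in G9577, with few counts in both.

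Of the 5 glycine receptor genes, Glrb was the one reported. The glycine receptor needs an α subunit to bind glycine, and Glrb links it to the scaffold protein gephyrin. Glrb was at 48.9, 53.7, 49.4, 37.3 and 8.75 CPM in G4314, G9351, G9488, G9529 and G9577 with MYCN on. Their MYCN-off libraries had 65.0, 76.2, 78.4, 67.9 and 6.63 CPM. It was lower with MYCN on in 4 lines and higher in G9577. The log2 change over 5 lines was −0.43 (SE 0.19, adjusted p = 0.126), and without G9577 it was −0.60 (SE 0.13, adjusted p = 0.0121). Glrb lies 40.8 kb from Gria2. The α subunit genes Glra1, Glra2 and Glra4 stayed below 10 counts, and Glra3 reached 11 in 1 library.

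Of the 16 nicotinic receptor genes, 6 were reported and 3 fell, where 15.5% of all genes tested fell. Of these 3, Chrna5 and Chrne met the minimum through the MYCN-off libraries alone, the group with the higher mean. Nicotinic receptors open to acetylcholine and to nicotine, and one group of their subunits serves neurons and another serves muscle. Among the neuronal subunits, Chrna5 fell. It encodes an accessory subunit that joins others without forming the binding site and lies at chr9:54828687-54855586 of mm9. It was at 5.48, 10.3, 5.39, 0.285 and 0 CPM in G4314, G9351, G9488, G9529 and G9577 with MYCN on. In the MYCN-off libraries it was at 12.2, 22.2, 16.7, 1.76 and 0 CPM. All 4 lines with counts were lower with MYCN on, G9529 was far below the other 3, and the groups overlapped. The log2 change was −1.47 (SE 0.32), or 2.77-fold lower (adjusted p = 0.0188). It did not pass without G4314 (adjusted p = 0.0604), G9351 (0.0585) or G9488 (0.0666).

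Chrna3, an α subunit whose gene lies 3.56 kb from Chrna5, was present in the same lines. It was at 3.42, 7.99, 6.60, 0.0951 and 0 CPM with MYCN on and at 3.51, 8.19, 7.71, 0.967 and 0 CPM with MYCN off in G4314, G9351, G9488, G9529 and G9577. The on and off levels of the first 3 lines lay close together, and the log2 change was −0.44 (SE 0.46, adjusted p = 0.491). Chrnb4, 1.597 kb beyond Chrna3 and the usual partner of both, reached 44 counts in G4314 with MYCN off and 12 with MYCN on, and stayed below 10 in the other lines. Whether the changes of Chrna5 and Chrna3 differ was not tested.

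**Figure D5:**
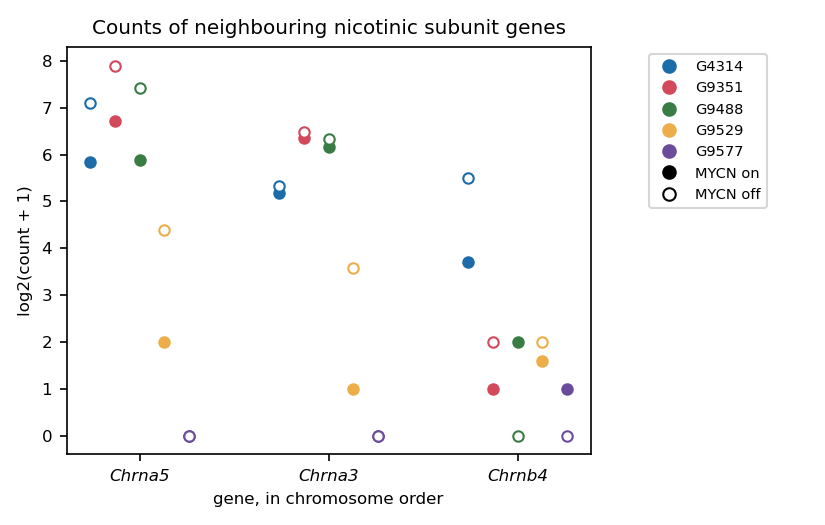
The vertical axis gives log2(count + 1) for Chrna5, Chrna3 and Chrnb4, neighbours shown in chromosome order, with 1 colour per line, filled for MYCN on and open for MYCN off. G4314, G9351 and G9488 stand above G9529 for Chrna5 and Chrna3, and G9577 sits at 0 for both.

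Chrnb2 held a steady level in 4 lines. It ran from 78.5 to 107 CPM over their 8 libraries and was at 1.30 and 2.54 CPM in G9577, with a log2 change of −0.17 (SE 0.18, adjusted p = 0.484). Its exons share 8 bases with Adar. The main α partner of Chrnb2 in the brain, Chrna4, reached 32 counts in 1 library, and Chrna7, which forms channels alone, 13, so neither met the minimum.

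Among the muscle subunits, Chrnb1 and Chrne fell at low levels, and Chrnd did not pass. Chrnb1 (chr11:69597538-69609439 of mm9) was at 1.27, 1.38, 0.0930, 0.951 and 1.77 CPM in G4314, G9351, G9488, G9529 and G9577 with MYCN on. Without doxycycline the same lines had 5.94, 5.68, 1.86, 1.85 and 4.09 CPM. It was the 1 gene of the 28 whose groups did not overlap, against 8.98% of all genes tested. These levels rest on 1 to 19 counts with MYCN on and 19 to 66 with MYCN off. The log2 change was −1.88 (SE 0.42), or 3.69-fold lower (adjusted p = 0.0173), with an adjusted p of 0.0688 without G4314 and 0.0643 without G9351. Chrnb1 was not among the genes lowest in G9577, and its line term did not pass (adjusted p = 0.125).

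Chrne, the subunit of the adult muscle receptor (chr11:70428385-70432696 of mm9), was at 0.489, 0.986, 1.30, 0.761 and 0.186 CPM with MYCN on in G4314, G9351, G9488, G9529 and G9577. Their MYCN-off libraries had 4.68, 2.51, 12.8, 4.13 and 0 CPM. In 4 lines Chrne was lower with MYCN on, and G9577, with 2 counts and 0, went the other way, so the groups overlapped. The log2 change was −2.33 (SE 0.60), or 5.03-fold lower (adjusted p = 0.0268), from 2 to 14 counts with MYCN on and 0 to 131 with MYCN off. The adjusted p rose to 0.0986 without G4314, 0.0569 without G9351, 0.0931 without G9488 and 0.0646 without G9529, and was 0.00446 without G9577. Chrnd, the δ subunit, was at 71.1 and 56.3 CPM, on and off, in G4314 and at 31.6 and 43.3 CPM in G9529, against 1.30 to 9.96 CPM in G9351 and G9488 (line term adjusted p = 0.000240). Its log2 change was −0.23 (SE 0.31, adjusted p = 0.591). The muscle α subunit gene Chrna1 stayed below 10 counts in each library.

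In G9577, 12 of the 28 genes reached 10 counts in a library and 16 did not. The 12 were Chrnb1, Chrnb2, Gabra4, Gabrg1, Glrb, Gria2, Grik3, Grik4, Grik5, Grin2d, Grin3a and Grin3b. A gene below the minimum ran the other way: Gabre, the ε subunit of the GABA-A receptor, had 35 counts with MYCN on and 82 with MYCN off in G9577 and at most 2 in each other library. Of the 30 genes below the minimum, 1 was at 0 in each library, 19 had a highest count of 1 to 9, and 10 reached 10 counts in at least 1 library. At the minimum itself, the fourth highest count was 13 for Gabrd, just inside, and 8 for both Chrna4 and Gabrr2, just outside.

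The machinery around the channels was read from 7 lists, of which 97 genes were tested, 5 rose and 23 fell, against 15% and 15.5% of all genes tested, which is the background for each list below. With 1 line left out there were 2 to 12 rises and 9 to 32 falls, the fewest falls without G4314 or G9351 and the most of both without G9577. Over all genes tested, these refits gave 814 to 2261 rises and 849 to 2257 falls. In the list of auxiliary subunits of AMPA and kainate receptors, 5 of 17 fell, with a median log2 change of −0.81 against −0.09 over all genes. Leaving out 1 line moved the falls between 2 and 8. Cnih2, a cornichon that helps AMPA receptors leave the endoplasmic reticulum, fell from 23.3 ± 14.4 to 10.2 ± 6.44 CPM (SD, n = 5 lines, log2 change −1.36, adjusted p = 0.0122). It was lower with MYCN on in 5 of 5 lines. Cacng5, a stargazin relative, fell by 4.52 on the log2 scale (SE 0.63, adjusted p = 0.00605), with 124 CPM with MYCN off and 4.44 with MYCN on in G9351 and no more than 1.93 CPM in the other libraries. Without G9351 its adjusted p was 0.0713. Olfm2, an olfactomedin bound to AMPA receptors, fell by 1.66 (SE 0.37, adjusted p = 0.0168), and had an adjusted p of 0.0750 without G4314.

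Among 30 scaffold genes tested, 1 rose and 9 fell (2 to 11 falls with 1 line left out), with a median log2 change of −0.53 against −0.09 over all genes. Lin7a, which links scaffolds to cell polarity complexes, fell by 1.56 (SE 0.27, adjusted p = 0.00824) and was called without each line in turn. Dlgap3 fell by 0.93 (SE 0.19, adjusted p = 0.0131, 0.0603 without G4314), and Lin7b by 1.24 (SE 0.25, adjusted p = 0.0135, 0.0564 without G4314 and 0.0552 without G9351). The scaffold gene that rose was Gphn, which encodes the gephyrin that anchors glycine and GABA-A receptors, by 0.58 (SE 0.13, adjusted p = 0.0184) in 5 of 5 lines. The call was lost without G4314 (0.0576), G9351 (0.0715) or G9529 (0.0656), and the gene is named after its value was seen.

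Of 11 genes tested for nicotinic and 5-HT3 receptor assembly and their Ly6 prototoxins, 1 rose and 2 fell. Ly6e, a Ly6 protein, rose from 16.9 ± 6.86 to 47.1 ± 29.2 CPM (SD, n = 5 lines, log2 change 1.36, adjusted p = 0.00724) in 5 of 5 lines. Ly6h, whose protein binds nicotinic receptors, fell by 1.72 (SE 0.37, adjusted p = 0.0192, 0.0939 without G4314 and 0.0871 without G9351). Lypd6b fell by 1.08 (SE 0.32, adjusted p = 0.0460), and the call was lost without G4314 (0.0762), G9351 (0.102), G9488 (0.132) and G9529 (0.118).

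Of 9 G protein-coupled counterparts tested, 1 rose and 3 fell. Grm7, a presynaptic glutamate receptor, fell by 2.14 (SE 0.42, adjusted p = 0.0145) and was called without each line in turn. Chrm4, a muscarinic receptor, fell by 1.55 (SE 0.33, adjusted p = 0.0145, 0.0508 without G9351). Grm5, a postsynaptic glutamate receptor, rose by 2.21 (SE 0.61, adjusted p = 0.0376), with losses of the call without G4314 (0.134), G9351 (0.0751) and G9529 (0.0617).

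Among 18 genes of transmitter synthesis, transport and breakdown, 2 rose and 3 fell, between 2 and 6 falls with 1 line left out. Gad1, the enzyme that makes GABA, fell in 5 of 5 lines. It was at 17.3, 23.2, 4.09, 4.94 and 0.186 CPM with MYCN on and at 159, 186, 58.8, 75.6 and 0.884 CPM with MYCN off in G4314, G9351, G9488, G9529 and G9577. The log2 change was −3.42 (SE 0.23), or 10.7-fold lower (adjusted p = 0.00267). Slc18a1, a vesicular transporter of serotonin and other monoamines, fell by 2.92 (SE 0.43, adjusted p = 0.00519), and Gls2, a glutaminase, rose by 1.36 (SE 0.27, adjusted p = 0.0116). All 3 were called without each line in turn.

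Of the 3 genes of the RNA editing family, none passed edgeR's test. Adarb2 was lower by unadjusted p below 0.05 and was called by DESeq2, and by edgeR without G9577 (adjusted p = 0.0406). In that same fit Adarb1 was called higher, by 0.78 on the log2 scale (adjusted p = 0.00520). Adar had a log2 change of 0.26 over the 5 lines (SE 0.12, adjusted p = 0.119). Of 9 other ligand-gated channels tested, 1 fell: P2rx6, an ATP receptor subunit at 0.404 ± 0.194 CPM with MYCN on and 1.34 ± 0.897 with MYCN off (SD, n = 5 lines, adjusted p = 0.0419). Its call was lost without G4314 (0.141), G9351 (0.134), G9529 (0.0610) and G9577 (0.0677). P2rx4 (−1.19, adjusted p = 0.0569) and P2rx7 (−1.20, adjusted p = 0.0826) had fitted changes below 0 that did not pass. Without G9577 P2rx4 was called lower (0.0464).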

How the data were processed

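RNA of 10 cultures was sequenced, 5 cell lines with and without doxycycline, after TRIzol extraction, oligo-dT selection and NEBNext Ultra library preparation, per the labels' protocols. Per the submitters' processing notes, the authors used bcl2fastq 1.8.4 and STAR 2.5.2a on mm9. The authors deposited raw read counts by gene, made without strand by featureCounts 1.6.0, per the file headers. Reads with several alignments, or over exons of more than 1 gene, were not counted, so levels of genes with shared exons are partial.

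Genes with at least 10 counts in 4 or more of the 10 libraries were tested, 13288 in all, with 95.3% to 99.9% of the counts of each library. Differences were tested by quasi-likelihood F tests in edgeR 4.0.16 (R 4.3.3), with line as a block, TMM factors of 0.853 to 1.08, 4 residual degrees of freedom and a biological coefficient of variation of 28.7%. Tests were two-sided, p-values were adjusted by Benjamini-Hochberg over the 13288 genes, and the threshold was 0.05. All adjusted p-values are from this fit unless another tool is named. The line term is an F test of the line coefficients of the same fit. SE was taken as the size of the log2 change over the square root of F. Changes by line, which have no test, compare log2 CPM (prior count 2) of the line's libraries. CPM per kb divides by the exon length in the files.

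Replicate numbers pair the libraries, as the labels' titles give the same number to the same cell line. Deviations from the group means correlated within a line with r of 0.731 to 0.877, and with other lines at most 0.259. With 1 culture per line and condition, p-values of the doxycycline term set the change against its spread between lines. In the line term the on and off libraries of a line stand in for replicates. No library was a copy of another. The test was run on simulated counts, where doxycycline changes were equal in all lines and placed in well-counted genes. That run does not cover changes that differ by line or genes with few counts. Alternatives were DESeq2 1.42.0, limma-voom (limma 3.58.1), RLE scaling, library size alone, other filters, no block and each line left out. Of the matched genes, 4 are not reported here and stay out of all counts and sums over the receptor genes, though not out of the fit. Every other receptor gene at the minimum is named, with values by library for those past the threshold and for the 3 highest per kb. From each pathway list the up to 3 genes with the smallest p are named. The receptor genes and lists were chosen with earlier results of these data known.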

Additional observations from a re-analysis of the deposited data

Results flagged for a closer look

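In each group of 5 libraries, and among the 5 changes by line, the highest or lowest value was compared with its nearest neighbour by Dixon's criterion, a gap of more than 0.71 of the whole range. Of 84 groups examined, 18 passed, where chance alone is set to pass about 1 in 20. In 16 of the 18 the value was the lowest level, that of G9577.

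With MYCN on, the log2 CPM of G9577 was 0.58 for Chrnb2 (the next lowest line was at 6.34), 3.16 for Glrb, −1.41 for Gria2, −1.82 for Grin1, 1.28 for Grin3b and −0.61 for Htr3a. It was −2.39, the value of 0 counts, for Gabrq, Gria4, Grid1 and Grin1os. With MYCN off, it was 1.45 for Chrnb2, 2.77 for Glrb, 0.37 for Gria2, −0.94 for Grid1, −0.43 for Grin1 and −2.39, again 0 counts, for Gabrp.

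A level outside G9577 also stood apart: Chrnb1 with MYCN on was at −1.82 log2 CPM in G9488, from 1 count, with the next line at 0.19. Among the changes by line, that of Chrna3 in G9529 was −2.02, with the next at −0.22, from a level below 1 CPM in both conditions.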

How the results depend on the processing

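Of the 335 pairs of a reported gene and an alternative to the doxycycline test, 283 kept direction and side of the threshold, 22 lost a call, 12 gained one and 18 changed sign, all 18 in 7 genes that did not pass. The line test had 11 alternatives, and its counts stayed within 1.5 times throughout. Without the replicate block the receptor genes called fell from 1 higher and 5 lower to 0 and 0 (4 at unadjusted p below 0.05), all genes to 206 higher and 55 lower, and the list genes to 0 and 0. The call of Htr3a was lost as well (adjusted p = 0.210). DESeq2 called 2 receptor genes higher, adding Gabrg1 (adjusted p = 0.0458), 8 receptor genes lower, and 8 list genes higher in place of 5. Limma-voom called 9 receptor genes lower. Over all genes tested, DESeq2 called 2291 higher and 3073 lower, and limma-voom 2121 and 2457, against 1990 and 2054 in edgeR's main fit. With 1 line left out, genes higher ran from 814 to 2261, genes lower from 849 to 2257, receptor genes lower from 1 to 6, list genes higher from 2 to 12 and list genes lower from 9 to 32. These refits had 4 lines, and the cause of the other changes was not tested.

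Changed signs were as follows, as log2 changes. Gria4 was at −0.028 with DESeq2, −0.037 with RLE scaling, −0.023 with library size alone, −0.26 with limma-voom and −0.39 without the block. Without the block, Grin1 was at 0.059, Chrnd at 0.037 and Grin2c at 0.051, and with limma-voom Grin1 was at 0.020. With 1 line left out, the change ran from −0.45 to 0.37 for Gria4, −0.23 to 0.056 for Grin1, −0.45 to 0.076 for Chrnd, −0.63 to 0.59 for Gabrb2, −1.11 to 0.11 for Gabra4 and −0.41 to 0.29 for Gabrd. Depth limits the genes at the low end: 16 of the 28 had fewer than 10 counts in both G9577 libraries, so their change in that line rests on a few reads.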

Other observations

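Some neighbours among the receptor genes were counted in unlike sets of lines. Chrng, 5.74 kb from Chrnd and the subunit of the fetal muscle receptor, stayed below 10 counts in each library, also in G4314, where Chrnd was at 71.1 CPM with MYCN on. On chromosome X, Gabre was counted in G9577, where its neighbour at a distance, Gabrq, was at 0, and Gabrq was counted in the other 4 lines. On chromosome 5, Gabrb1, 41.7 kb from Gabra4, had its highest counts, 40 and 34, in G4314 and G9488 with MYCN off, libraries where Gabra4 had 56 and 127. Chrna2 reached 21 counts in 1 library, G4314 with MYCN off. These are counts of single libraries with no test.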
